A study of Mus musculus with 6 samples.

Results

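The levels of 9 heat shock chaperone genes, Hspa1a, Hspa1b, Hspa8, Hsp90aa1, Hsp90ab1, Hsph1, Dnajb1, Hspb1 and Hspa5, were read in the hippocampus of single mice as a measure of tissue stress. They were chosen by name and make up 9 of 53354 gene symbols, and their 49 isoforms are part of 133944 isoforms counted. The 6 libraries came from C57BL/6 mice aged 3 months, 3 of genotype N-cre and 3 of genotype N-cre;Fox1. N-cre mice carried a Nes-cre transgene, in which the nestin promoter drives Cre recombinase. The study describes Cre activity of this line in the hippocampus as neuronal, by a reporter stain. N-cre;Fox1 mice carried the same transgene and 1 copy of an Rbfox1 cDNA placed at the Gt(ROSA)26Sor locus behind a CAG promoter and a stop cassette that Cre removes. The N-cre mice were the controls, so that Cre was shared by both groups, and every mouse gave 1 library of total RNA. The study used these libraries to ask which transcripts change when Rbfox1, a neuronal RNA-binding protein, is raised.

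Heat shock proteins bind unfolded stretches of other proteins and help them to fold or keep them from clumping. When misfolded protein builds up, the transcription factor HSF1 forms trimers, binds heat shock elements in the promoters of its targets and raises their transcription within minutes, whereas misfolding in the endoplasmic reticulum acts through a separate pathway on genes such as Hspa5. In brain, the HSP70 genes Hspa1a and Hspa1b are low at rest and are widely used as markers of proteotoxic or thermal stress, while Hspa8 and Hsp90ab1 are abundant at all times, above all in neurons.

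The promoter letters that these pathways are known to read are shown first, as the sequence background of the genes measured. Windows from 250 bases before to 50 after the annotated start were read for 6 of the 9 genes (8 windows, RefSeq, GRCm38.p6), while Hspa8, Hsp90aa1 and Hsp90ab1 were not matched. A heat shock element was searched as GAA and TTC in alternation with any 2 bases between them, as 2 units and as 3 units, of which each 3-unit match also holds 2-unit matches. The reverse complement of each form is among the forms searched, so that both strands are covered. The 2-unit form was found in 15.1% of 32851 promoter windows of all genes and in those of 4 members, and the 3-unit form in 0.603% of windows and in those of 1 member, Hsph1. The endoplasmic reticulum stress element, searched on both strands as CCAAT, any 9 bases and CCACG, was found in 0.119% of windows and in that of Hspa5. In the stretches below, read 5′ to 3′ on the strand of the gene, capitals mark the searched letters, and a match describes letters only.
Hspa1a, chr17:34972242-34972271, minus strand: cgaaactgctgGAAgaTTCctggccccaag
Hspa1b, chr17:34959324-34959353, minus strand: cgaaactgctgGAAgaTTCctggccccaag
Hspb1, chr5:135887801-135887830, plus strand: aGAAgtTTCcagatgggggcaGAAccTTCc
Hsph1, chr5:149636351-149636380, minus strand: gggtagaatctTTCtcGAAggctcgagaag
Hsph1, chr5:149636287-149636308, minus strand: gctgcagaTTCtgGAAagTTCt
Hspa5, chr2:34772020-34772048, plus strand: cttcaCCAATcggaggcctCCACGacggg

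The elements of Hspa1a and Hspa1b began 104 bases before the start and lay in an identical stretch, and the 250 bases before the start differed between both genes at 3 positions. Hspb1 held a pair of 2-unit elements, the first of which began 117 bases before the start. The 2-unit element of Hsph1 began 33 bases before the outer of its 2 RefSeq starts, and its 3-unit element lay after both. The gene as annotated for the counts begins further out, at 149636376, so that both elements lie within it. In Hspa5 the element began 65 bases before the RefSeq start, and the gene as annotated for the counts again begins further out, at 34771970. Neither of the 2 windows of Dnajb1 held any of the patterns.

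The libraries held 40463587 to 62141336 expected read pairs, of which the members took 0.516 to 0.521% in N-cre mice and 0.526, 0.578 and 0.573% in N-cre;Fox1 replicates 1, 2 and 3. The summed count of Rbfox1 did not separate the genotypes (15286, 14456 and 14698 normalized counts in N-cre mice and 15939, 13571 and 15283 in N-cre;Fox1 mice), while the counts of its isoform Rbfox1-202 did not overlap (1753, 1779 and 1881 against 2430.2, 2167 and 2353). The genotype of each library is therefore taken from its label throughout. The study reports a modest rise of Rbfox1 in N-cre;Fox1 hippocampi, of the protein by immunoblot and of the mRNA without showing the data. The summed count here does not show that rise. Xist, the RNA of the inactive X chromosome, was high in replicate 1 of both genotypes (23514 and 22029.5 normalized counts) and between 17.3 and 22.2 in the other 4 mice. Ttr, the main transcript of the choroid plexus, stood at 111008 in N-cre replicate 3 and 251900.0 in N-cre;Fox1 replicate 2 and at 274 to 672 in the rest. Transcripts of hippocampal neurons, astrocytes, oligodendrocytes and microglia were present in every library, with none of their 10, 6, 6 and 6 markers at 0. In such bulk tissue, fewer cells of a type and less RNA per cell cannot be told apart.

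Per transcript length, the constitutive chaperones Hspa8 and Hsp90ab1 stood above all other members. The order of the levels in TPM (counts scaled by annotated transcript length and library size, mean ± SD over 6 mice) ran from Hspa8, the constitutive HSP70, at 2043 ± 133 through Hsp90ab1 at 1779.7 ± 53.9 to Hsp90aa1, the HSP90 form that stress can raise, at 952 ± 52.0. Hspa5, the HSP70 of the endoplasmic reticulum also known as BiP, at 263 ± 29.1 and Hsph1, a large HSP70-related protein that exchanges the nucleotide of HSP70, at 243 ± 30.6 TPM came next. Mouse by mouse, Hspa5 was above Hsph1 except in N-cre;Fox1 replicate 3 (275 against 280 TPM). The lowest mouse for Hspa8 (1932) was above the highest for Hsp90ab1 (1864). Dnajb1, the J-domain protein that brings substrates to HSP70, had 47.5 ± 10.7 TPM. Hspa1b at 24.9 ± 9.20, Hspa1a at 21.5 ± 6.90 and Hspb1, a small heat shock protein, at 14.5 ± 5.39 TPM closed the list. Hspa1b was above Hspa1a except in N-cre replicate 1 (18.6 against 19.1 TPM), on levels that depend on how their shared reads were divided. Hspa1a was above Hspb1 in each of the 6 mice. Even Hspb1 exceeded 72.1% of the genes with a level above 0. Summed, the 9 genes reached 5155, 5180.4 and 5141 TPM in N-cre mice and 5264, 5834 and 5762 TPM in N-cre;Fox1 mice. The inducible pair Hspa1a and Hspa1b together amounted to 1.95, 1.79 and 1.82% of the TPM of Hspa8 in N-cre mice and to 1.81, 2.99 and 3.08% in N-cre;Fox1 mice.

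**Figure D1:**
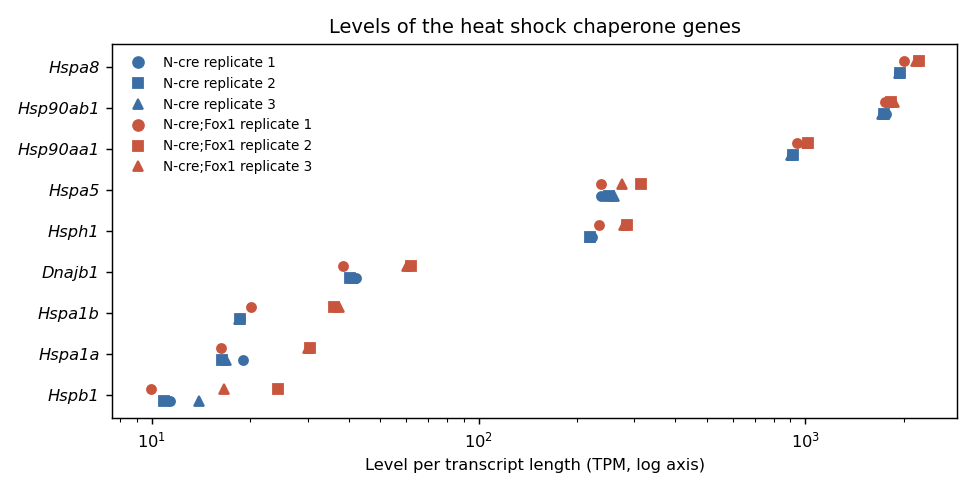
Level of each heat shock chaperone gene in each of the 6 mice, in TPM on a log axis, with the gene in italics on the other axis (blue, N-cre; red, N-cre;Fox1; symbol, replicate). Hspa8 and Hsp90ab1 lie at or above 1723 TPM in every mouse, and Hspa1a, Hspa1b and Hspb1 at or below 37.4 TPM.

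All 9 genes had a higher mean in N-cre;Fox1 mice, and N-cre;Fox1 replicates 2 and 3 were the 2 highest of the 6 mice for each of the 9. With all 6 mice, none of the 9 passed the test across genes (edgeR's quasi-likelihood test, Benjamini-Hochberg adjusted p under 0.05), and 5 of 18924 genes tested did, or 0.0264%. At an unadjusted p under 0.05, 4 members were higher and none lower, beside 3.59% of all genes higher and 6.19% in either direction. For 5 of the 9 the genotypes did not overlap, all higher in N-cre;Fox1 mice, against 6.06% of all genes, and 50% of all genes had a log2 fold change above 0. Among the 5 is Hspa1b, whose level rests on the division of reads shared with Hspa1a. The median log2 fold change was 0.21 over the members and -2.6e-05 over all genes tested. The members share mice and known regulation, so that they are not independent of each other, and p-values measure the spread between these mice only.

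The HSP70 genes that stress induces showed a wide split within the N-cre;Fox1 group. Hspa1b (chr17:34956436-34959238, minus strand, a gene of 1 exon) had normalized counts of 1115, 1115 and 1100.3 in N-cre replicates 1, 2 and 3 and of 1205, 2107 and 2230.2 in N-cre;Fox1 replicates 1, 2 and 3. The groups did not overlap, but N-cre;Fox1 replicate 1 lay close to the control mice and the other two lay well above them. The means were 1110.1 ± 8.48 in N-cre mice and 1847 ± 560.0 in N-cre;Fox1 mice (SD, n = 3 each), and the fit gave a log2 fold change of 0.74 (SE 0.263), or 1.66-fold, with a 95% interval from 1.02 to 2.71 (edgeR's quasi-likelihood test, adjusted p = 0.799). For Hspa1a (chr17:34969190-34972156, minus strand, also of 1 exon) the counts were 1211, 1034 and 1059.8 in N-cre mice and 1034, 1893 and 1901 in N-cre;Fox1 mice. N-cre;Fox1 replicate 1 was the lowest of the 6 mice here, so that the groups overlapped, with replicates 2 and 3 above every control. The difference came to a log2 fold change of 0.55 (SE 0.278), or 1.46-fold, with a 95% interval from 0.873 to 2.44 (edgeR, adjusted p = 0.852). Of the 150-base stretches of the Hspa1a transcript, 39.7% occur also in Hspa1b or Hspa1l, so that reads are divided between the copies by RSEM and single levels of the pair are uncertain. Summed into 1 row, both genes had a log2 fold change of 0.64 (edgeR, adjusted p = 0.815).

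The cochaperones and the small heat shock protein followed the same mice. Dnajb1 (chr8:83608193-83612653, plus strand) stood at 2704, 2580.1 and 2627 normalized counts in N-cre mice and at 2461, 3874 and 3851 in N-cre;Fox1 mice. Its N-cre;Fox1 replicate 1 lay below all controls and replicates 2 and 3 above them, which gave a log2 fold change of 0.36 (SE 0.204; edgeR, adjusted p = 0.865). Hspb1 (chr5:135887919-135889563, plus strand) had 221, 209.7 and 267 counts in N-cre mice and 192, 459 and 319 in N-cre;Fox1 mice. The order was the same, with replicate 2 highest, and the difference of 0.48 on the log2 scale (SE 0.320) missed the threshold (edgeR, adjusted p = 0.899). Hsph1 (chr5:149614287-149636376, minus strand) varied least of these 3, at 15386, 15453 and 15312 in N-cre mice and 16565, 18233 and 18595 in N-cre;Fox1 mice. All 3 N-cre;Fox1 mice lay above all 3 controls, with replicate 1 nearest to them. Hsph1 had a log2 fold change of 0.21 (SE 0.0461), or 1.16-fold, with a 95% interval from 1.08 to 1.24, with an unadjusted p of 0.000944, the lowest of the 9, and an adjusted p of 0.447 (edgeR). It was the one member called by the Wald test of DESeq2 with all mice (adjusted p = 0.00479; 0.259% of genes called) and by edgeR's test without the filter on low counts (adjusted p = 0.0362; 0.145% called).

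Abundant chaperones of the cytosol differed by a few percent. Hspa8 (chr9:40800984-40810087, plus strand) had 94158, 95428 and 94599 normalized counts in N-cre mice and 97752, 105712 and 106172 in N-cre;Fox1 mice, or a log2 fold change of 0.12 (SE 0.0423; edgeR's test, adjusted p = 0.764). Hsp90aa1 (chr12:110690605-110702728, minus strand) had 56979.7, 56681 and 55913 in N-cre mice and 58928, 61710.0 and 61983 in N-cre;Fox1 mice, or a log2 fold change of 0.11 (SE 0.0388) with an adjusted p of 0.772 (edgeR). For Hsp90ab1 (chr17:45567775-45573271, minus strand) the counts were 91597, 90837 and 89121 in the former and 91793, 92725 and 96280.1 in the latter, with a log2 fold change of 0.05 (SE 0.0379) and an adjusted p of 0.912. In each of these 3 genes every N-cre;Fox1 mouse exceeded every N-cre mouse, and N-cre;Fox1 replicate 1 was the nearest of the 3 to the controls. Hspa5 (chr2:34771970-34777547, plus strand), the member of the endoplasmic reticulum, had 12045, 12781 and 13214 in N-cre mice and 12096, 15536 and 13847 in N-cre;Fox1 mice. The groups overlapped, since N-cre;Fox1 replicate 1 fell among the controls, and the log2 fold change was 0.13 (SE 0.0926; edgeR, adjusted p = 0.911). A share of 55.4% of the 150-base stretches of Hspa8-201 and 41.9% of those of Hsp90aa1-201 occur also in processed copies, which together with that of Hspb1 were each counted at no more than 0.848% of their member.

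**Figure D2:**
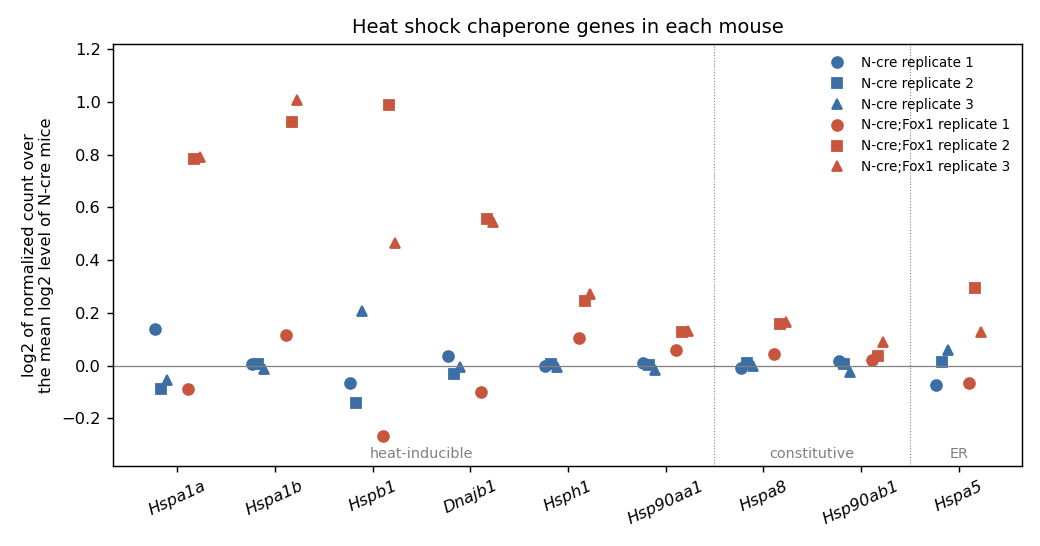
Log2 normalized count of each heat shock chaperone gene in each mouse relative to the mean of the 3 N-cre mice (blue, N-cre; red, N-cre;Fox1; symbol, replicate; dotted lines divide heat-inducible, constitutive and endoplasmic reticulum members). N-cre;Fox1 replicates 2 and 3 are the 2 highest points for all 9 genes, and replicate 1 lies within or below the range of the controls for 4 of them.

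Averaged over the 6 heat-inducible members (Hspa1a, Hspa1b, Hspb1, Dnajb1, Hsph1 and Hsp90aa1), the log2 level relative to the N-cre mean was 0.02, -0.04 and 0.02 in N-cre mice and -0.03, 0.60 and 0.54 in N-cre;Fox1 mice. The constitutive pair Hspa8 and Hsp90ab1 gave 0.00, 0.01 and -0.01 in N-cre mice and 0.03, 0.10 and 0.13 in N-cre;Fox1 mice. These means do not divide the sets gene by gene. In N-cre;Fox1 mice the inducible Hsp90aa1 was at 0.06, 0.13 and 0.13 and the constitutive Hspa8 at 0.05, 0.16 and 0.16. The inducible mean also counts Hspa1a and Hspa1b separately, although they share reads. The inducible mean of N-cre;Fox1 replicate 1 lay near that of the controls because members went both ways: this mouse was above every control for Hspa1b, Hsph1 and Hsp90aa1 and the lowest of the 6 mice for Hspa1a, Dnajb1 and Hspb1. Spread within a genotype was wider over N-cre;Fox1 mice than over N-cre mice for each member, and did not divide heat-inducible from other members. The coefficient of variation of Hspa1b was 0.764% over N-cre mice and 30.3% over N-cre;Fox1 mice, and that of Hsph1 0.460% and 6.08%. These N-cre values are below what counting error alone would give (Hspa1b had 1299, 941 and 841 expected counts). With 3 mice they understate the spread of controls, and the contrast with N-cre;Fox1 mice is inflated. Dnajb1 had 2.37% and 23.8%, Hspa1a 8.70% and 31.0%, and Hspb1 13.1% and 41.2%. Hsp90aa1, also heat-inducible, had 0.973% and 2.78%. Of the other members, Hspa5 had 4.66% and 12.4%, Hspa8 0.681% and 4.59%, and Hsp90ab1 1.40% and 2.53%. Among genes whose normalized counts averaged 200 or more, the median was 3.64% and 4.56%. Over all 6 mice Hspa1a, Hspa1b, Hspb1 and Dnajb1 each varied more than 97.6% or more of those genes, and Hsp90ab1 more than 14.1% of them.

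The calls depended on N-cre;Fox1 replicate 1. With this mouse left out, 4 of the 9 genes passed edgeR's test, beside 0.15% of all genes. Hspa1b then had a log2 fold change of 0.97 (SE 0.0495; edgeR, adjusted p = 4.77e-05), Hspa1a 0.79 (SE 0.0694; adjusted p = 0.00136), Dnajb1 0.55 (SE 0.0395; adjusted p = 0.000403) and Hsph1 0.26 (SE 0.0378; adjusted p = 0.0288). The remaining N-cre;Fox1 mice are the high ones, so that this fit describes those mice and gives no separate test of the genotype. Without any other single mouse none of the 9 was called, and the log2 fold change of Hspa1b ranged from 0.58 to 0.74 over those 5 fits. The log2 fold change of Hspb1 was 0.14 and that of Hspa5 0.04 without N-cre;Fox1 replicate 2, the mouse with the highest Ttr.

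Other differences between the mice ran alongside these values. N-cre;Fox1 replicate 1, the lowest of its group for all 9 genes, was the N-cre;Fox1 mouse with high Xist. The N-cre mouse with high Xist, replicate 1, was the highest control for Hspa1a, Dnajb1, Hsp90aa1, Hsp90ab1 and, narrowly, Hspa1b. It was the middle control for Hsph1 and Hspb1 and the lowest for Hspa8 and Hspa5. Among the 4 mice with low Xist, a comparison added after the data were seen, 3 members were called, beside 0.342% of all genes, namely Hspa1a at 0.86, Hspa1b at 0.98 and Dnajb1 at 0.58 on the log2 scale (edgeR, adjusted p = 0.000536, 0.000536 and 0.00087). The N-cre;Fox1 mice kept here are again replicates 2 and 3, the high ones, so that these calls restate the fit without replicate 1 and are no separate test. A term for high Xist over all 6 mice left every member uncalled, with adjusted p from 0.209 to 0.91 in edgeR's test. Within the N-cre;Fox1 group, high Xist and the single mouse that carries it cannot be told apart. Among the 4 mice with low Ttr, also compared after the data were seen, no member was called, beside 0.0366% of all genes, and Hspa1b had a log2 fold change of 0.63 (SE 0.422). The 6 choroid plexus markers averaged -1.80, -1.41 and 3.21 on the log2 scale in N-cre mice and -1.61, 4.30 and -1.92 in N-cre;Fox1 mice. N-cre;Fox1 replicate 3, with a low value here, had a mean of 0.54 over the 6 heat-inducible members beside 0.60 in replicate 2. Hspb1 and Hspa5 were highest within each genotype in the mouse with high choroid plexus markers. The part of choroid plexus tissue in the chaperone values was not tested.

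**Figure D3:**
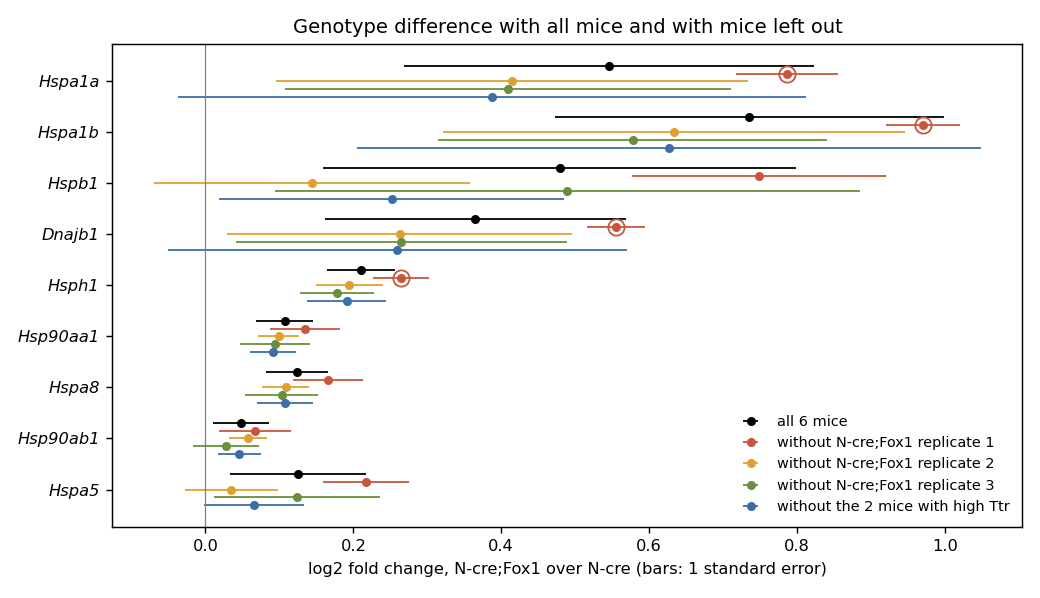
Log2 fold change of each heat shock chaperone gene, N-cre;Fox1 over N-cre, with 1 standard error, from edgeR fits to all 6 mice and to subsets of mice (colour); a ring marks an adjusted p under 0.05. Rings appear for Hspa1a, Hspa1b, Dnajb1 and Hsph1 in the fit without N-cre;Fox1 replicate 1 and in no other fit shown.

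Most isoforms followed the gene counts. Of the 49 isoforms, 27 are annotated as protein coding and 16 as retaining an intron, 13 held at least 5% of their gene's count, and 2 (Hsp90aa1-208 and Hsp90ab1-207) were at 0 in all mice. The filter on low counts left 41, of which 36 had a log2 fold change above 0 and 5 below, beside 50.9% above 0 among all 50556 isoforms tested. None was called by edgeR's test, as for all isoforms (0%), 7 reached an unadjusted p under 0.05, as did 4.78% of those tested, and 13 did not overlap between genotypes (11.5% of all), of which 11 were higher with N-cre;Fox1 and 2 lower. The single isoforms of Hspa1a and Hspa1b and the main isoforms of Dnajb1 and Hspb1 held nearly all of their gene's counts and followed its values. The Wald test of DESeq2 called 1 member isoform, Hsp90aa1-202, at 19417, 19393 and 19338 normalized counts in N-cre mice and 20469.7, 21168 and 21645 in N-cre;Fox1 mice, with a log2 fold change of 0.12 (SE 0.0315) in edgeR's test (adjusted p = 0.902; by the Wald test 0.0210, which called 0.425% of all isoforms).

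A protein-coding isoform of Hsph1 went against its gene. Hsph1-205, with 19 exons and 3140 bases, had 97.2, 119 and 123 normalized counts in N-cre mice and 41.4, 31.0 and 62.7 in N-cre;Fox1 mice. All 3 N-cre;Fox1 mice, replicate 1 among them, were below all controls, and the isoform had a log2 fold change of -1.32 (SE 0.295) with an unadjusted p of 0.00366 and an adjusted p of 0.81 (edgeR). It made up 0.492% of the Hsph1 count, and its level rests on how RSEM divided reads among 11 overlapping isoforms. That division was uneven in places, as Hsph1-209 received expected counts of 457, 5 and 685 in N-cre mice and 1165, 845 and 474 in N-cre;Fox1 mice. Hspa8-202, a coding isoform of 9 exons, had 5244, 4876 and 4212 normalized counts in N-cre mice and 5694, 6230.2 and 5839.9 in N-cre;Fox1 mice, or a log2 fold change of 0.31 (SE 0.0847; edgeR, adjusted p = 0.945). Hspa8-203, a transcript annotated without a coding frame, had 67.1, 68.8 and 118 in the former and 365, 120.2 and 146 in the latter, and here N-cre;Fox1 replicate 1 was the highest mouse (log2 fold change 1.32, SE 0.492; edgeR, adjusted p = 0.99).

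Shares of the isoforms within a gene, which do not depend on library size, were close to equal in both genotypes. From N-cre to N-cre;Fox1 mice (mean ± SD, n = 3 each), the share of Hspa8-201 went from 92.9% ± 0.710 to 92.0% ± 0.314, that of Hsp90aa1-201 from 65.3% ± 0.340 to 64.8% ± 0.365, that of Hsph1-211 from 74.9% ± 4.24 to 70.8% ± 4.06 and that of Hspa5-202 from 92.0% ± 0.626 to 92.3% ± 1.24. Over the 8 isoforms with a mean share from 5 to 95%, the exact permutation test (two-sided) gave p from 0.2 to 0.7 and adjusted p of at least 0.4, where 3 against 3 mice cannot go below 0.1. Retained-intron and other noncoding isoforms of Hsph1 held 6.44, 6.00 and 5.53% of its counts in N-cre mice and 5.19, 10.3 and 8.82% in N-cre;Fox1 mice. Replicates 2 and 3 were again the highest, and replicate 1 the lowest of all. Hspa1b held 47.9, 51.9 and 50.9% of the summed Hspa1a and Hspa1b count in N-cre mice and 53.8, 52.7 and 54.0% in N-cre;Fox1 mice. Its counting error was of the order of a few points, with a 95% Wilson interval from 48.5 to 53.3% in the shallowest library, N-cre replicate 3, which covers counting error only.

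**Figure D4:**
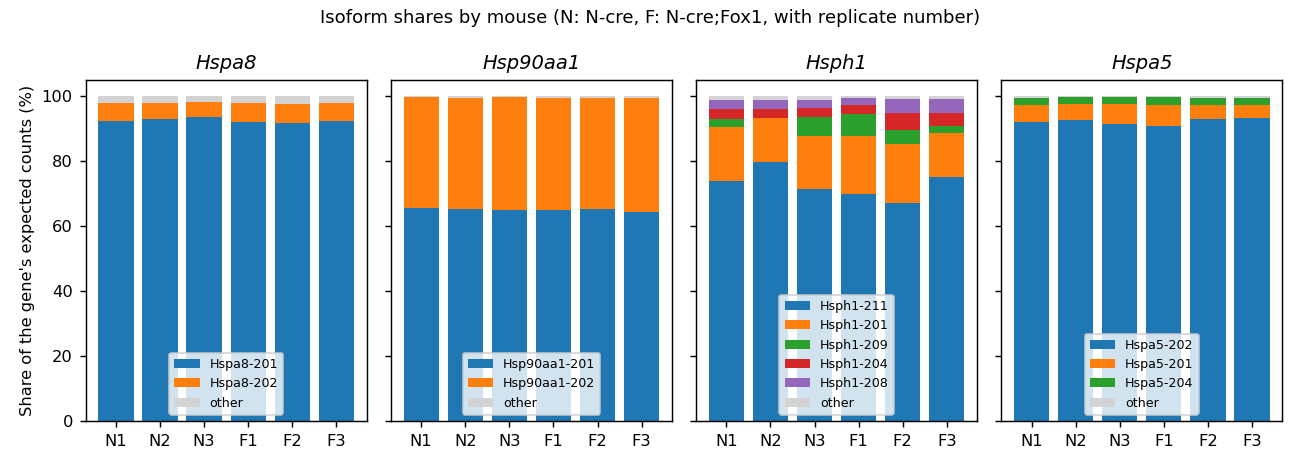
Share of the expected counts of Hspa8, Hsp90aa1, Hsph1 and Hspa5 held by each isoform in each mouse, in percent, as stacked bars (N1 to N3, N-cre replicates; F1 to F3, N-cre;Fox1 replicates; isoforms with a mean share under 2% are pooled as other). The main isoform of each gene holds most of the counts in all 6 mice, and Hsph1-209 is nearly missing in N-cre replicate 2.

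Other genes of the chaperone network were read from lists of partners and pathways. None of them was called with all 6 mice. Of 20 further genes linked to HSF1, 19 had a log2 fold change above 0 (50% of all genes), 7 were higher at an unadjusted p under 0.05 (3.59% of all genes) and 8 were higher without overlap between genotypes (6.06% of all genes). Their median log2 fold change was 0.09, and their mean log2 level relative to the controls was 0.04, 0.14 and 0.11 in N-cre;Fox1 replicates 1, 2 and 3. Bag3, which links HSP70 to autophagy, had 448, 364 and 441 normalized counts in N-cre mice and 531, 613 and 563 in N-cre;Fox1 mice, with a log2 fold change of 0.45 (SE 0.103) and an adjusted p of 0.489 (edgeR). Unlike Hspa1a, Bag3 was above all controls in N-cre;Fox1 replicate 1 too. Dnajb5, a further J-domain protein, had a log2 fold change of 0.14 (SE 0.0338; edgeR, adjusted p = 0.539), and Hsf1 itself a log2 fold change of -0.04 (SE 0.0373; adjusted p = 0.943).

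The remaining chaperone lists had medians closer to 0, and no difference between lists was tested. Of 23 cochaperones of HSP70 and HSP90, 8 were above 0 and 15 below, with a median of -0.01, and the lowest unadjusted p belonged to Ptges3 (log2 fold change 0.08) and Dnajc8 (-0.06). Fkbp5, an HSP90 cochaperone that glucocorticoids induce, had 3965, 4115 and 3861 normalized counts in N-cre mice and 3932, 2698 and 3084 in N-cre;Fox1 mice. Replicates 2 and 3 of the latter were below every other mouse (edgeR, adjusted p = 0.849 with all mice). Without N-cre;Fox1 replicate 1 its log2 fold change was -0.46 (edgeR, adjusted p = 0.0204, beside 0.15% of all genes called). That fit keeps the low mice and is no separate test. Among 24 genes of the endoplasmic reticulum, 16 were above 0 and 8 below, with a median of 0.02. Atf4, a transcription factor of the unfolded protein response, had a log2 fold change of 0.12 (adjusted p = 0.756, edgeR) and Herpud1, a factor in the disposal of misfolded proteins, 0.11 (adjusted p = 0.769). Mitochondrial chaperones were above 0 in 6 of 11 genes, with Hspd1, the HSP60 of mitochondria, at 0.10 and the protease Lonp1 at -0.07. This list shares genes, Hspd1 among them, with the list linked to HSF1, so that such genes are counted in both. Subunits of chaperonin and prefoldin, which fold actin and tubulin, were above 0 in 6 of 14, with Cct4 at 0.08 and Pfdn4 at -0.15. Unadjusted p under 0.05 was reached by 1, 2, 2 and 1 genes of these 4 lists, beside the 6.19% of all genes.

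Lists outside the chaperone network were read in the same mice. The 12 immediate early genes, which neuronal activity and handling induce within minutes, averaged -0.08, -0.02 and 0.10 on the log2 scale in N-cre mice and -0.06, 0.58 and 0.65 in N-cre;Fox1 mice. Again replicates 2 and 3 of the N-cre;Fox1 group stood apart and replicate 1 lay among the controls. The list had 11 genes above 0 and 1 below, 2 with an unadjusted p under 0.05, none called, and a median log2 fold change of 0.41. Without N-cre;Fox1 replicate 1, edgeR's test called 4 of the 12, Fos, Egr2, Egr4 and Junb, all higher, beside 0.15% of all genes. That fit keeps the N-cre;Fox1 mice already seen to be high for this list, so that these calls are no separate test. The part of activity or handling in the chaperone values was not tested. The 8 glucocorticoid targets, which follow stress hormones, gave 0.34, -0.19 and -0.15 and 0.17, -0.08 and -0.15, with replicate 1 of each genotype highest, and a median log2 fold change of 0.01. Median log2 fold changes of the markers of neurons, astrocytes, oligodendrocytes, microglia, endothelium and blood were -0.01, 0.11, -0.00256, -0.04, 0.02 and 0.03, and no marker was called. Single mice differed more, most of all for blood, with list means of -0.26, -0.20 and 0.46 in N-cre mice and -0.37, 0.34 and 0.13 in N-cre;Fox1 mice. Endothelium and mural cells gave -0.12, 0.01 and 0.12 in N-cre mice and -0.16, 0.22 and 0.03 in N-cre;Fox1 mice. For neurons N-cre;Fox1 replicate 2 was lowest, at -0.12. For 4 of 6 astrocyte markers every N-cre;Fox1 mouse was above every N-cre mouse (6.06% of all genes), with list means of 0.04, -0.02 and -0.02 in N-cre mice and 0.17, 0.06 and 0.09 in N-cre;Fox1 mice, the highest in replicate 1. The part of astrocytes, endothelium, blood or other cell types in the chaperone values was not tested.

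**Figure D5:**
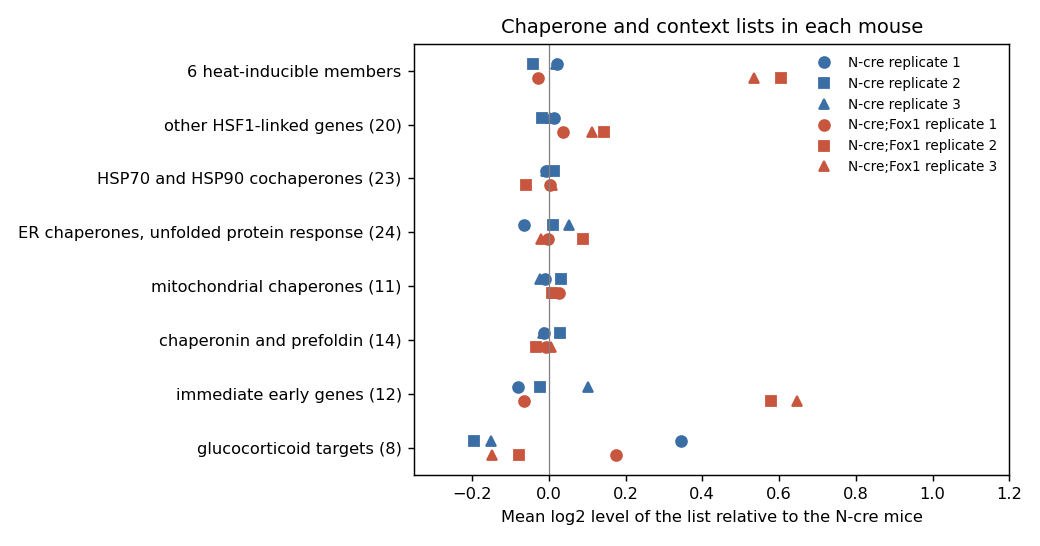
Mean log2 level of the heat-inducible chaperones and of 7 other gene lists in each mouse, relative to the mean of the 3 N-cre mice (blue, N-cre; red, N-cre;Fox1; symbol, replicate; number of genes in brackets). N-cre;Fox1 replicates 2 and 3 lie apart from the other 4 mice for the heat-inducible members, at 0.60 and 0.54, and for the immediate early genes, at 0.58 and 0.65.

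The genes whose pattern over the 6 mice was most like the mean of the 6 heat-inducible members were Car5b, Egr2, Dapp1, Zbtb43 and Bicdl1, with Pearson's r from 0.992 to 0.996 on the log2 scale. Of 13737 genes with a mean count of at least 100, 278 had r above 0.9. The mice fall into 2 with high and 4 with low values, so that a high r states only that a gene was high in N-cre;Fox1 replicates 2 and 3. Egr2, a transcription factor of the immediate early class, had 235, 208 and 239 normalized counts in N-cre mice and 222, 532 and 544 in N-cre;Fox1 mice. The other 4 differed by less, and Zbtb43, a zinc finger protein, ranged from 1653 to 1853.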

How the data were processed

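Total RNA of flash-frozen hippocampi (RNA integrity number above 9) was made into stranded libraries with ribosomal RNA removed and sequenced as 150-base pairs. Per the submitters' processing notes and the study's methods, the authors trimmed reads with cutadapt 1.18, aligned them with STAR 2.5.2b to mm10 and deposited expected counts per isoform from RSEM 1.3.0, which are estimates that divide shared reads and need not be whole.

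Here, isoform counts were summed by gene symbol (127 symbols join more than 1 gene ID), rounded, and tested with edgeR 4.0.16 (filterByExpr with a minimum count of 10, TMM, quasi-likelihood test, Benjamini-Hochberg over all genes or isoforms tested, threshold 0.05). Normalized counts are scaled to the mean library. TPM used transcript lengths of GENCODE M21, which matched 130921 of 133944 isoforms and is later than the release the authors used. Intervals of folds are 95%. The study's own caller was not used here. Alternatives were DESeq2 1.42.0, limma-voom 3.58.1, other filters, no rounding, a term for Xist, a replicate block and leaving out each mouse.

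Members and lists were chosen with earlier results of these data known. Named genes were the members, their isoforms with a mean share of at least 5%, an adjusted p under 0.05, or an unadjusted p under 0.05 without overlap, the genes called in a list, Hsf1 and the 2 genes of lowest p per related list, and the 5 genes most like the heat-inducible members. Hsph1-209, Hsp90aa1-208, Hsp90ab1-207, Rbfox1-202, Xist, Ttr, Fkbp5, Fos, Egr4 and Junb were named after their values were seen.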

Additional observations from a re-analysis of the deposited data

How the results depend on the processing

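The 9 member genes kept a log2 fold change above 0 under every alternative run. With all 6 mice, 5 genes were called and none of the members; the counts were 49 and 1 by the Wald test of DESeq2, 45 and 1 without the filter on low counts, 11 and 0 with a term for Xist, and 65 and 3 among the 4 mice with low Xist, a subset chosen after seeing the data. Leaving out single mice gave 2 to 29 genes, 0 to 4 members and 0 to 1 genes of the related lists, with the highest values in each case without N-cre;Fox1 replicate 1. The replicate block called 5 genes and 0 members. Deviations of same-numbered mice correlated at 0.71, -0.24 and -0.39 over 13746 genes. N-cre replicate 3 with N-cre;Fox1 replicate 2 reached 0.75, and N-cre replicate 2 with N-cre;Fox1 replicate 3 reached 0.55. Such correlations cannot settle whether the numbers pair the mice. The Wald test called 1 member isoform against 0. The sign of Hspa5-201 (-0.03 with all mice, and -0.1315 to 0.1031 with single mice left out) turned to 0.1031 without N-cre replicate 3, 0.0863 without N-cre;Fox1 replicate 3 and 0.0778 among the 4 mice with low Ttr. Isoform lengths less 200 bases, with a floor of 1 base, moved the summed level of the members to 3775 TPM, from 5389, without a change in their order. That floor raises the weight of short transcripts in the scaling, and its part in the fall was not tested. With 3 mice a group, the exact tests of shares could not pass the threshold, and 8 of the 49 isoforms had too few counts to be tested.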
